A study of Mus musculus with 4 samples.

Results

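Wdtc1, Hdac7, Clip2, Pald1, Nfic, Rtkn2 and Slc37a1 were the 7 autosomal protein-coding genes of 50 kb or more with the most CTCF summits per Mb of gene body, out of 4787 such genes (0.146%). Together they held 77 of the 54309 summits in the conservative peak list, the stricter of 2 lists that the authors made from both pools. A summit is the base of highest signal within a peak. CTCF-bound DNA had been sequenced after chromatin immunoprecipitation (ChIP-seq) from hearts of female adult B6CASTF1/J mice aged 2 months, hybrids that carry a C57BL/6J and a CAST/EiJ genome. Pools G and H each joined 2 heart biosamples, and each pool was sequenced as 2 technical libraries, which makes 4 libraries in all. The animals of both pools shared strain, sex, age and tissue, and no treatment or other tissue was compared. Library depth is unknown, since read totals are not part of the peak lists, which also hold no expression values against which the labelled tissue could be checked. All coordinates are on mm10.

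CTCF is a zinc-finger protein that binds a long, directional DNA motif and, with the ring-shaped cohesin complex, anchors chromatin loops. Cohesin is thought to extrude DNA until it meets CTCF, and loops tend to form between motifs that point towards each other. Within genes, bound CTCF is known to act as a boundary between enhancers and promoters and to influence exon inclusion. In the mouse, copies of some short interspersed repeats carry a CTCF motif, which has spread sites through the genome.

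Hdac7 and Nfic encode regulators of transcription, Clip2 a protein of the cytoskeleton, Rtkn2 a relative of the signalling protein rhotekin, Pald1 a phosphatase-domain protein of endothelial cells, Slc37a1 a sugar-phosphate transporter and Wdtc1 a substrate receptor of a ubiquitin ligase.

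The sequences that show where CTCF could be read at these genes are those of the 12-base CTCF core, searched on both strands with up to 1 mismatch and centred within 100 bp of a summit. The strongest core-bearing summit of each gene is given first. Each run is 30 bases, 5′ to 3′ on the strand of the core, from the C57BL/6J reference, and the capitals mark the core.
Hdac7, summit 1, minus strand, chr15:97841005-97841034: ctagactgtCCAGTAGGGGGAatcatgggc
Nfic, summit 8, plus strand, chr10:81408947-81408976: tgggaccggCCCCCAGGGGGCagcaccgtc
Clip2, summit 8, plus strand, chr5:134494430-134494459: ggttcactaCCACCAGGGGGCgccagccac
Rtkn2, summit 2, minus strand, chr10:67984759-67984788: ctgaagtaaCCAGCAGGGGGCcacggccac
Pald1, summit 7, minus strand, chr10:61344156-61344185: gcaagctgtCCAGCAGAGGGCgctgtggag
Slc37a1, summit 10, minus strand, chr17:31344342-31344371: ctgtaaagaCCACCAGGGGGCgctctccaa
Wdtc1, summit 7, plus strand, chr4:133310122-133310151: ccgcagctgCCACCAGGGGGAgcgcctgga

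A second set is shown because its members resemble each other across genes. All 6 lie in soft-masked sequence, the lower-case bases that mark repeats in the reference, and all hold the core word CCAGAAGAGGGC. The repeat family was not analysed here.
Nfic, summit 6, plus strand, chr10:81423291-81423320: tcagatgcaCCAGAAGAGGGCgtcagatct
Rtkn2, summit 10, plus strand, chr10:68043616-68043645: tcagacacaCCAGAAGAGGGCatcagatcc
Pald1, summit 5, plus strand, chr10:61353425-61353454: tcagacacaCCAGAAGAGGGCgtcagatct
Pald1, summit 11, minus strand, chr10:61326550-61326579: tcagacataCCAGAAGAGGGCattagatcc
Slc37a1, summit 5, minus strand, chr17:31307105-31307134: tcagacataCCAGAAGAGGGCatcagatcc
Wdtc1, summit 5, minus strand, chr4:133340495-133340524: ttagaggcaCCAGAAGAGGGCatcatatct

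The genes were selected on the number of conservative summits per Mb, which ran from 197 in Wdtc1 to 156 in Slc37a1. Over all 4787 genes the median was 24.6 per Mb, the 95th percentile 83.8 and the 99th percentile 116, and 526 genes held no summit. Just inside the limit stood Slc37a1 with 10 summits. Just outside it were Rcan1 with 12 summits and 152 per Mb, Jade1 with 9 and 147 per Mb, and Zfp64 with 9 and 145 per Mb. The step across the limit was smaller than 1 summit in a gene of the length of Slc37a1. These values chose the genes and carry no test.

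**Figure D1:**
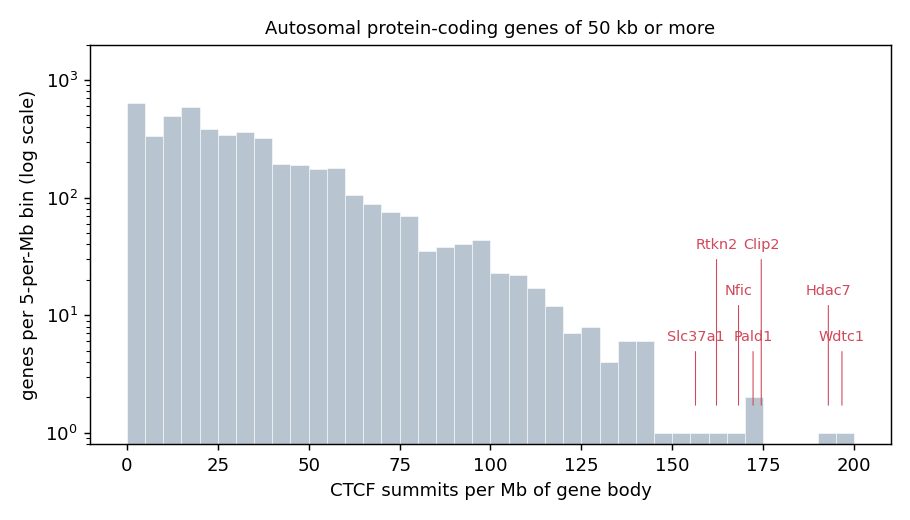
Histogram of CTCF summits per Mb of gene body (x axis) against the number of genes (y axis, log scale) for the 4787 autosomal protein-coding genes of 50 kb or more, with the 7 densest genes marked. They lie between 156 and 197 per Mb, with the nearest other gene at 152 per Mb.

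Hdac7 encodes a class IIa histone deacetylase that represses MEF2 target genes and is known for its part in keeping blood vessels intact. The gene lies on the minus strand of chromosome 15, from 97792664 to 97844502, and its 51.8 kb held 10 summits, or 193 per Mb. In the longest protein-coding transcript 8 of the 10 lay in intron 1, which is 32.5 kb long. The other 2 lay in introns 4 and 22. Summits 3, 4 and 10 lay within 1 kb of an annotated start site, and summit 3 lay in an exon of another transcript. Counted from the annotated gene start, summits 1 and 2 stood 627 bp apart at 3.47 and 4.10 kb, with signals of 463 and 394, and each had a core with 1 mismatch. The signal is a score that the authors deposited from their peak caller, in a unit that is not stated. In a whole tissue, strong binding in few cells and weak binding in many cannot be told apart in it.

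The 2 strongest Hdac7 summits had no core. Summit 9, in intron 4 at 34.3 kb, had a signal of 558 in the conservative list, with 299 in that of pool G and 261 in that of pool H. Summit 6, in intron 1 at 19.4 kb, had 541, with 293 in pool G and 243 in pool H. All 4 cores in Hdac7 pointed along the gene, at summits 1, 2, 4 and 10. Summit 10, in intron 22, was the only soft-masked summit of the gene and the only one with an exact core. Its signal of 377 was the highest of all summits with the word CCAGAAGAGGGC in the 7 genes. Summit 4 was the weakest at 76.0, and the only one of the 10 absent from the pool H list.

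Nfic encodes nuclear factor I/C, a transcription factor that binds DNA as a dimer and is known in the mouse for its part in tooth root formation. It lies on the minus strand of chromosome 10, from 81396186 to 81455635, and its 59.5 kb held 10 summits, or 168 per Mb. None lay in an exon of any transcript, and 6 of the 10 lay in intron 1, which is 34.7 kb long. Summit 8, in intron 3 at 46.7 kb, was the strongest with 805 in the conservative list, 433 in pool G and 379 in pool H. Summits 10, 3 and 7 followed with 672, 611 and 552. The other 6 had signals between 74.3 and 269, so strong and weak sites stood apart in this gene.

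Only 5 of the 10 Nfic summits had a core, 3 on the strand of the gene and 2 on the other strand. A single core was exact, that of summit 6, whose signal was 101.1. The 3 strongest core-bearing summits all had 1 mismatch. Summit 7, near an annotated start site in intron 2, had no core at a signal of 552. Summits 8 and 9 also lay within 1 kb of an annotated start site, and summit 9, in intron 5, had no core.

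A further strong peak in Nfic fell outside the conservative list. The ranked list of both pools, which keeps candidates whatever their irreproducible discovery rate (IDR), had a summit at position 81450357 of chromosome 10, in intron 1 at 5.28 kb. Its signal of 848 was above that of every conservative summit in the 7 genes, with 458 in pool G and 391 in pool H for the matched pair. Its scaled IDR score was 67, against the 540 that stands for an IDR of 0.05, the limit of the list. It had a core with 1 mismatch, on the strand of the gene.
Nfic, ranked candidate at 5.28 kb, minus strand: tggatgtgaACAGTAGAGGGCagaaaagaa
With it Nfic would have had 11 summits and 185 per Mb, and would have ranked 3 rather than 5. Such cases were frequent among the strongest peaks of the series: 388 of 1372 ranked peaks with a signal of 800 or more (28.3%) were below the IDR limit, against 0 of 19486 with a signal between 300 and 700.

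Clip2 encodes CLIP-115, a protein that binds the growing ends of microtubules. The gene lies on the minus strand of chromosome 5, from 134489383 to 134552434, and its 63.1 kb held 11 summits, or 174 per Mb. Binding was concentrated towards the end of the gene: 7 of the 11 summits lay between 44.9 and 62.6 kb. Summit 8, in intron 12, was the strongest with 758, and 399 in pool G and 365 in pool H. Summit 9, in intron 14, had 742, with 405 in pool G and 337 in pool H. Summit 5, in intron 8, had 713, with 387 in pool G and 331 in pool H.

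The cores of summits 5, 7, 8, 9 and 10 of Clip2 formed a run on the strand opposite to the gene, with signals from 338 to 758. Summit 6, which stood among them, had no core and a signal of 289. Summit 11 followed 862 bp after summit 10 with a core along the gene and a signal of 387, and both lay in the last exon of the longest coding transcript, exon 16. The first summit stood 0.02 kb from the annotated gene start, in exon 1, without a core and with a signal of 312. Of the 60 member summits in both single-pool lists, it was the summit at which the pools were nearest to each other, at 158 in pool G and 155 in pool H.

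Rtkn2 encodes rhotekin 2, a protein related to the signalling protein rhotekin. It lies on the plus strand of chromosome 10, from 67979570 to 68059740, and as the longest of the genes, with 80.2 kb, it held the most summits, 13, or 162 per Mb. The strongest, summit 3 in intron 2 at 16.8 kb, had no core within the limits of the search, at a signal of 746 in the conservative list, 408 in pool G and 347 in pool H. A position matrix learned from CTCF sites on the odd autosomes did find a motif there, on the strand opposite to the gene. Of the 77 summits this was the only one at which the matrix found a motif and the core search did not. The reverse held at 14 summits, which had a core but no motif by the matrix. Summit 2, in intron 1 at 5.21 kb, had an exact core on the strand opposite to the gene, with 705, and 376 in pool G and 332 in pool H.

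The summits of Rtkn2 fell into groups on either side of a gap of 30303 bp, the longest between neighbours in any of the 7 genes. Before the gap lay 9 summits up to 33.8 kb, with signals from 16.1 to 746 and cores on the gene strand at 1 and on the other strand at 4. After it lay 4 summits from 64.1 kb, with signals of 212, 155, 134 and 199.5. The first 3 of these were soft-masked and had exact cores along the gene. Summit 10 lay in exon 12, and summits 11 to 13 lay beyond the longest protein-coding transcript, in an intron of a transcript annotated for nonsense-mediated decay.

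Pald1 encodes paladin, a phosphatase-domain protein of endothelial cells that is known to affect growth factor signalling in vessels. The gene lies on the minus strand of chromosome 10, from 61319656 to 61383530, and its 63.9 kb held 11 summits, or 172 per Mb. The first 17.4 kb, from the annotated gene start to summit 1, held none. Summit 7, in exon 11 of 96 bp, was the strongest with 746, and was the only Pald1 summit in an exon. It was in the pool H list with 330 and in no peak of the pool G list, whose ranked list held it with 417 at a scaled IDR score of 353, below the limit. Summit 8, in intron 15, followed 2505 bp later with 745.8, and had 401 in pool G and 341 in pool H.

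Cores in Pald1 pointed along the gene at 4 summits and against it at 4. Summits 7 and 8 had cores on opposite strands, as had summits 3 and 4, which stood 1433 bp apart with signals of 338 and 347. The 3 summits without a core had signals of 201, 71.4 and 94.6, and the 8 with a core ran from 95.1 to 746. Summits 4, 5 and 11 were soft-masked, all with the word CCAGAAGAGGGC, at 347, 95.1 and 128.

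Slc37a1 encodes a transporter of the endoplasmic reticulum that exchanges glucose-6-phosphate for phosphate. It lies on the plus strand of chromosome 17, from 31286792 to 31350739, and its 63.9 kb held 10 summits, or 156 per Mb. The 10 were all in both single-pool lists, which held for no other of the genes. Its strongest summit was the last, summit 10 in intron 17 at 57.6 kb, with 722, and 378 in pool G and 347 in pool H. Summits 8 and 9, in intron 10, had exact cores along the gene, at 519 and 541, and summit 9 was soft-masked.

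The first 4 summits of Slc37a1 formed a cluster without any core, between 7.76 and 10.9 kb, with signals of 559.9, 374, 150.4 and 346. All 4 lay within 1 kb of an annotated start site, and the first 3 lay within AC154652.2, a transcribed processed pseudogene on the opposite strand. Summits 1 and 2 lay in an intron of a protein-coding transcript other than the longest. In pool G the 4 had 296, 208, 82.7 and 199, and in pool H 269, 166, 69.2 and 148. With summits 5 and 6, Slc37a1 held 6 of the 16 member summits that lay within 1 kb of a start site.

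Wdtc1 encodes a protein of WD40 and TPR repeats that recruits substrates to the CUL4 ubiquitin ligase, and its fly homologue adipose is known for limiting fat storage. The gene lies on the minus strand of chromosome 4, from 133292459 to 133353481, and its 61.0 kb held 12 summits, the highest density at 197 per Mb. Counted by distinct peak intervals it held 9 and was no longer among the 7 densest genes. No summit lay in an exon or within 1 kb of a start site. Summits 1 to 5 lay before the longest protein-coding transcript, in introns of a processed transcript, and the rest in introns 3 to 12. Of the 12, 5 had a signal of 575 or more, and 4 of these lay between 43.4 and 55.6 kb. The other 7 had signals of 183 or less.

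The 12 summits of Wdtc1 lay in 9 intervals, because 3 intervals held a strong summit and a weak one 202 to 212 bp apart: 575 with 48.8, 756 with 21.6, and 804 with 20.5. None of the weak ones had a core. Rtkn2 held the remaining interval of this kind, with 627 and 16.1. The weak summits at 21.6, 20.5 and 16.1 had no summit within 100 bp in the ranked list of pool H. The pool H values of their matched pairs, 354, 369 and 303, were those of the strong neighbours. Of the 12 Wdtc1 summits, 9 had a match in the list of pool G and 5 in that of pool H.

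Summit 7, in intron 5 of Wdtc1, was the strongest conservative summit of all 7 genes, at 836, and rested near the limit with a scaled IDR score of 584. It was absent from both single-pool lists and from the second list of both pools. In the ranked list its matched pair had 448 in pool G and 388 in pool H. Those single-pool records had scaled IDR scores of 72 in pool G and 78 in pool H. Summit 12, in intron 12, had 825, with 425 in the pool G list and 398 in pool H at a score of 462, below the limit.

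**Figure D2:**
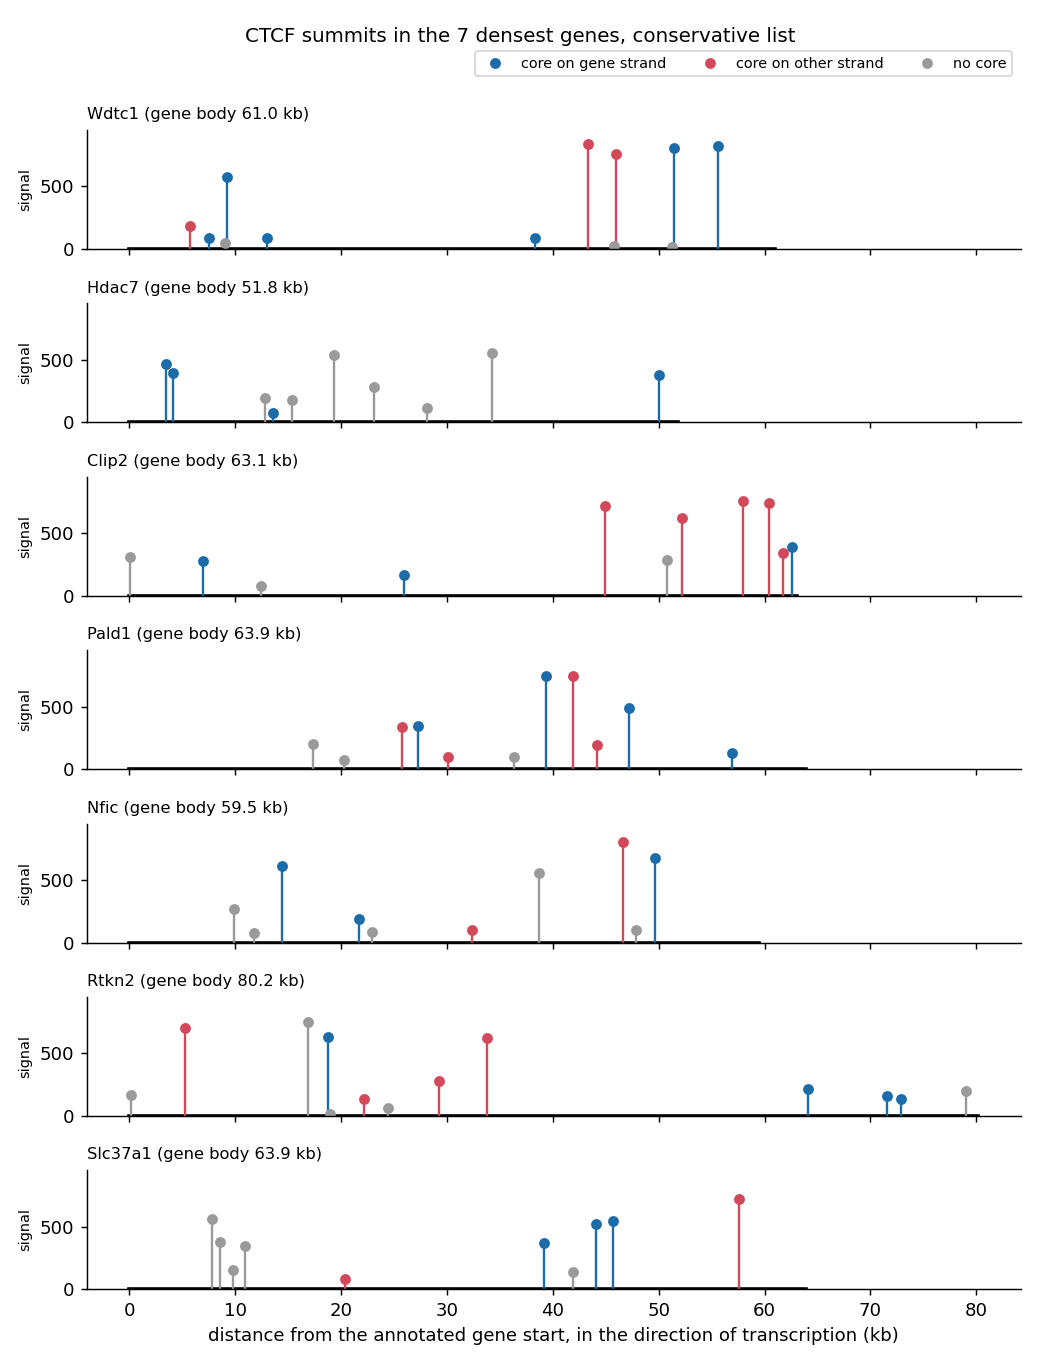
Position of each summit from the annotated gene start in the direction of transcription (x axis, kb) and its signal in the conservative list (y axis, the peak caller's unit, not stated), in a panel for each of the 7 genes, coloured by the strand of the core. Clip2 shows a run of cores on the strand opposite to the gene from 44.9 kb on, and Rtkn2 an empty stretch of 30303 bp.

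Across the 7 genes, neighbouring summits stood at a median of 3140.5 bp, with 202 bp as the shortest and 30303 bp as the longest of 70 gaps. In other long genes, meaning the other 4780 autosomal protein-coding genes of 50 kb or more, the median was 13667.5 bp over 14788 gaps. The short spacing follows from the selection. In the members 8 gaps were under 1 kb and 8 were 10 kb or more. The shortest, from 202 to 212 bp, lay between summits that shared a peak interval. Whether the gaps differed from those of random placement was not tested. Median spacing ran from 2177 bp in Slc37a1 to 5618 bp in Clip2.

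Summits were also frequent around the genes, with differences between sides. Stretches of the same length as each gene on either side held 62 summits in the members, or 69.9 per Mb, against 174 per Mb in the gene bodies. In other long genes the flanks held 29.6 per Mb and the bodies 24.5 per Mb. Hdac7 had 7 summits upstream and 7 downstream, and Nfic had 6 and 6. Rtkn2 had 1 upstream and 8 downstream, whereas Slc37a1 had 7 upstream and 1 downstream.

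The member sites did not stand out in strength. Their median signal was 282, with a range from 16.1 to 836, against 286 in the whole conservative list and 251 in other long genes. At or above the median of the list lay 38 of 77 member summits (49.4%, 95% exact binomial interval 37.8 to 61.0), against 45.8% of the 19042 summits in other long genes. By gene, the median ran from 137 in Wdtc1 to 373 in Slc37a1. The value of Wdtc1 was lowered by its weak summits at 48.8, 21.6 and 20.5, each in the interval of a strong one. The place of Wdtc1 in this order therefore depends on counting them. Intervals here cover counting error only, and summits in the same gene are not independent replicates.

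**Figure D3:**
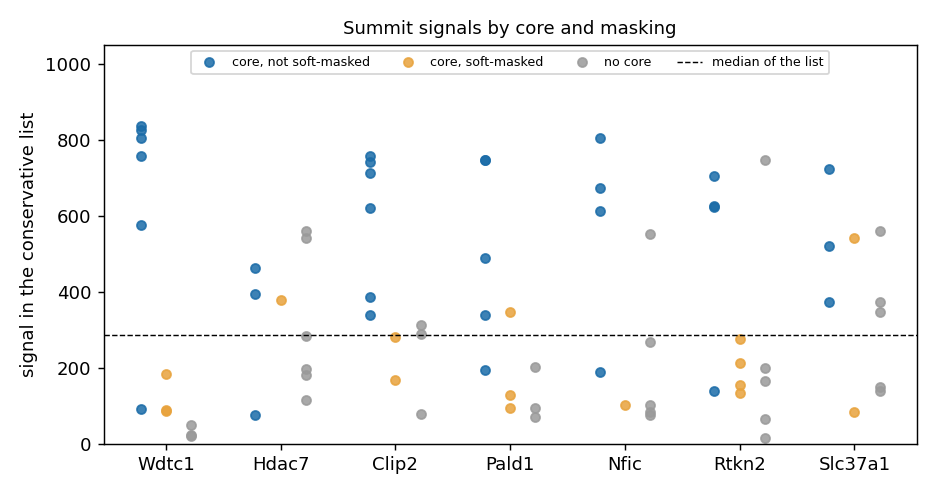
Signal of each conservative summit (y axis, the peak caller's unit, not stated) for the 7 genes (x axis), coloured by whether it had a core and, if so, whether it was soft-masked, with the median of the whole list, 286, as a dashed line. Every gene has sites on both sides of the line, and the lowest points, between 16.1 and 48.8, are in Wdtc1 and Rtkn2.

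The core was about as frequent at member summits as elsewhere. It was found at 47 of 77 (61.0%, interval 49.2 to 72.0), against 63.8% in other long genes and 66.1% over the whole list. In windows 1 kb away from member summits it was found in 8 of 154 (5.19%), against 5.79% in such windows over the whole list. An exact core was found at 29 of 77 member summits (37.7%), against 31.8% in other long genes. Hdac7 had a core at 4 of 10 summits and Nfic and Slc37a1 at 5 of 10, while Wdtc1 had one at 9 of 12. Away from start sites 40 of 61 member summits had a core (65.6%, interval 52.3 to 77.3), against 69.5% in other long genes, and within 1 kb of a start site 7 of 16 (43.8%, interval 19.8 to 70.1), against 36.7%.

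Core-bearing member summits were stronger than the rest as a group, with much overlap. Their median was 387, with a range from 76.0 to 836, and that of the 30 without a core was 173, with a range from 16.1 to 746. In other long genes the medians were 311 with a core and 185 without. The strongest member summits without a core were summit 3 of Rtkn2 at 746, summit 1 of Slc37a1 at 559.9 and summit 9 of Hdac7 at 558.

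Core orientation was mixed. The core lay on the strand of the gene at 27 of 47 core-bearing member summits (57.4%, interval 42.2 to 71.7), against 48.8% in other long genes. All 4 cores of Hdac7 and 6 of 9 in Wdtc1 pointed along the gene, while 5 of 8 in Clip2 pointed against it. At these core-bearing summits the position matrix found a motif at 2 of 4 in Hdac7, 6 of 9 in Wdtc1 and 6 of 8 in Clip2. Of 40 pairs of neighbouring core-bearing summits within a member gene, 23 pointed the same way (57.5%), 7 towards each other (17.5%) and 10 away from each other. In other long genes these shares were 53.6%, 23.7% and 22.7% of 8271 pairs.

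Most member summits were intronic and few were near promoters, as in other long genes. Outside every exon of the gene lay 69 of 77 (89.6%, interval 80.6 to 95.4), against 90.5%. Within 1 kb of an annotated start site of any gene lay 16 of 77 (20.8%, interval 12.4 to 31.5), against 17.4%. In soft-masked sequence lay 17 of 77 (22.1%, interval 13.4 to 32.98), against 23.2%. Their number ran from 1 in Hdac7 to 4 in Rtkn2. Their median signal was 167, against 359 at the 60 member summits outside soft-masked sequence; in other long genes the medians were 162 and 302.

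The word CCAGAAGAGGGC accounted for 13 of the 29 exact cores (44.8%), against 40.9% in other long genes, and occurred in every one of the 7 genes. Of these 13 summits 12 were soft-masked (92.3%), against 93.0% in other long genes. Their signals ran from 83.3 to 377 with a median of 134. The 16 summits with other exact words, of which 2 were soft-masked, had signals from 155 to 825 and a median of 624, so the ranges overlapped while the medians differed. Other long genes showed a like gap, with 154 at 2476 summits with the word and 498 at 3583 with other exact words. The word CCAGCAGAGGGC, found at 4 member summits in Wdtc1 and Pald1, had a median of 775.

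Among the 30-base runs of the 47 core-bearing summits none were identical, and the closest lay in different genes. Summit 5 of Slc37a1 matched summit 11 of Pald1 and summit 10 of Rtkn2 at 29 of 30 bases. Summit 6 of Nfic matched summit 5 of Pald1 at 28 of 30, and so did summit 10 of Rtkn2 with summits 5 and 11 of Pald1. Within a gene the closest pair, summits 5 and 11 of Pald1, matched at 26. Over all pairs the median was 14.5 bases in the same gene, over 146 pairs, and 14 in different genes, over 935 pairs. Signals at these near-identical copies ran from 83.3 in Slc37a1 to 212 in Rtkn2.

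Copies of the core in the gene bodies were counted whether or not they lay at a summit. The 7 genes held 54 exact copies, or 122 per Mb, against 31.1 per Mb in other long genes, but 32 of the 54 lay within 100 bp of the summits that chose the genes. The 22 exact copies with no summit made 49.6 per Mb, against 23.2 per Mb of such copies in other long genes. Outside soft-masked sequence 2 of 18 exact copies had no summit, or 4.51 per Mb, against 3.47 per Mb. Allowing 1 mismatch, 174 of 230 copies had no summit, or 392 per Mb, against 197 per Mb. The copy percentiles of single genes that follow also count copies at the summits that chose the genes, so the selection partly sets them. In Rtkn2, 9 of the 10 exact copies lay at such a summit. By exact copies per Mb, Hdac7 with 2 and Nfic with 3 were at percentiles 57.9 and 68.9 of all genes. The other 5 genes were at percentile 96.0 or above. With 1 mismatch allowed the order was another: Nfic was at percentile 98.8, Rtkn2 at 79.2 and Hdac7 at 75.6. Outside soft-masked sequence, again with 1 mismatch, Nfic was the highest of the 7 at percentile 99.8, Hdac7 was at 97.8 and Rtkn2 was the lowest at 81.5. GC content ran from 44.4% in Rtkn2 to 53.7% in Nfic, at percentiles 64.5 and 99.2, and its part in the number of copies was not tested.

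A larger share of these copies was occupied than elsewhere, and since the genes were chosen by their summits this is a description. Of the 54 exact copies, 32 had a summit within 100 bp (59.3%), against 25.3% in other long genes. Outside soft-masked sequence 16 of 18 were occupied (88.9%), against 50.8%. The word CCAGAAGAGGGC had 31 copies in the members, of which 14 were occupied (45.2%, interval 27.3 to 64.0), against 15.4% of 16134 copies in other long genes. Rtkn2 had 9 of its 10 exact copies occupied and Slc37a1 5 of 11.

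**Figure D4:**
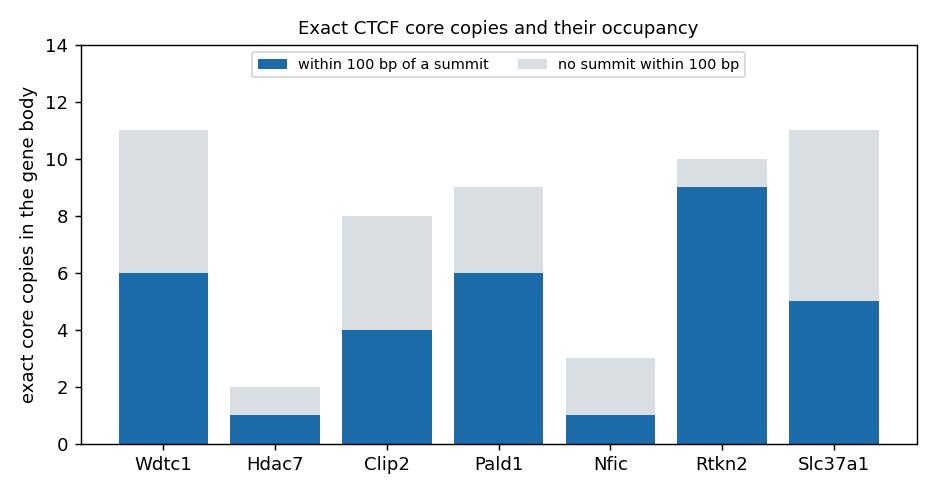
Number of exact copies of the 12-base CTCF core in each of the 7 gene bodies (y axis, stacked bars), divided into copies with a conservative summit within 100 bp and copies without. Hdac7 and Nfic have 2 and 3 copies, with 1 occupied in each, and Rtkn2 has 9 of 10 occupied.

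Both pools held most of the sites. Of the 77 member summits, 60 had a summit within 100 bp in both single-pool lists, 9 in that of pool G alone, 3 in that of pool H alone and 5 in neither. The conservative list had itself been selected for agreement between pools, so this is a description. The same counts over the whole list are not given here, so the members cannot be set against them. At all 60 shared summits the pool G value was above the pool H value, by 1.20 times at the median and between 1.02 and 1.75 times. For the matched pairs of the ranked list the median was 1.21 at member summits and 1.23 over the whole conservative list. The member pairs included weak summits set against the pool H value of a strong neighbour, with ratios down to 0.029. With 2 pools no test was made, and library depth is unknown.

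**Figure D5:**
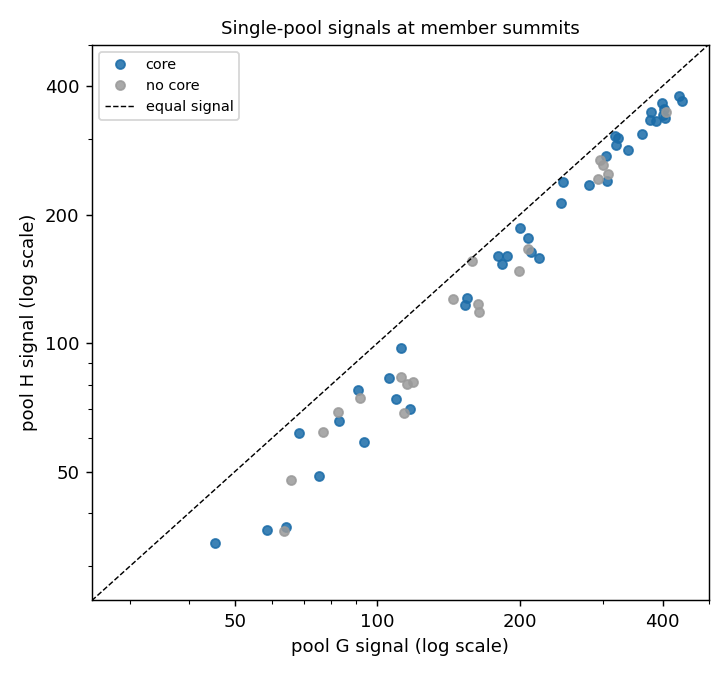
Pool G signal (x axis, log scale) and pool H signal (y axis, log scale) at the 60 member summits found in both, in the peak caller's unit, with the line of equal signal dashed. All points lie on the pool G side of the line, by 1.02 to 1.75 times, and the points farthest from it are among the weaker sites.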

How the data were processed

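CTCF ChIP-seq peak lists of pools G and H were analysed on mm10. The authors deposited each peak's signal as a score without a stated unit, and the IDR as a scaled score and, in the ranked lists, as −log10 of the global IDR. Readme texts deposited with the samples say which pool each list came from. The aligner and the caller are not given in the sources at hand. 7 of the 8 lists were used. Technical libraries were merged by the authors within a pool.

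Summits were assigned to gene bodies of GENCODE M21 on GRCm38.p6, with scipy 1.17.1, pandas 2.3.3 and numpy 2.4.6 in Python 3.11.15, and drawn with matplotlib 3.10.9. Single-pool signals are those of the nearest summit within 100 bp. Of several cores, that with the fewest mismatches, then the nearest, was taken. The position matrix was learned from exact cores outside soft-masked sequence on odd autosomes, with 4 flanking bases, 3 refits, a background weight of 0.1 and a limit reached by 1% of windows 1 kb away. The refits and that weight were set after a first version had been seen. Scripts were tested on simulated data.

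The genes and lists were chosen with earlier results of these data known. The text names the 7 genes, the 3 next in density, and the strongest and strongest core-bearing summit of each member; further summits were chosen after their values were seen. Alternatives were other peak lists, IDR 0.01, distinct intervals, stronger peaks, other gene lengths and gene types, other core, soft-masking and transcript definitions and other matching. Reads on the CAST/EiJ genome were not analysed here.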

Additional observations from a re-analysis of the deposited data

How the results depend on the processing

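The count of 77 summits fell to 38 when peaks under the median signal of the list were left out, and lay between 66 and 78 under the other 5 alternatives tried. Membership depended more on the choices made. Of the 7 genes, 4 were among the 7 densest in the second list of both pools, 4 in the pool H list, 3 when weaker peaks were left out in the same way and 2 at a minimum length of 40 kb. With ranked peaks at or above the median conservative signal, whatever their IDR, 2 were, an alternative chosen after seeing the data. Between 5 and 7 were under the other 5 alternatives. With distinct intervals 6 were, and Rcan1 took the place of Wdtc1, the densest gene of the main count. At an IDR of 0.01 6 were, and Jade1 took the place of Wdtc1. The share of member summits with a core was 37.7% for exact cores. With the position matrix it was 44.2%, against 47.8% of all conservative summits. The share in introns was 79.2% with 1 transcript per gene. The median spacing was 4558 bp in the pool H list. In that list Wdtc1 had 5 summits, against 12 in the conservative list. Exact cores are a part of the cores with up to 1 mismatch, and summits outside the 1 transcript were counted as not intronic. Apart from what such definitions fix, the cause of these differences was not tested. The other 38 recomputed values of the main results stayed within the limits set. These limits were the interval for shares and 1.5 times for counts. For median spacing and median signal the limit was the standard deviation of the gene medians. For the pool ratio it was the standard deviation of the log2 ratios. No paired analysis was possible because the libraries of a pool were merged in the lists and no test was made. Depth is unknown, so weak sites that were missed cannot be counted.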

Other observations

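Beside the conservative summits, the ranked list held 73 candidates in the 7 genes below the IDR limit, for 150 ranked peaks in all. Their median signal was 22.6, and 19 of the 73 had a core. The share with a core among all ranked candidates below the limit is not given here. Nfic had the most, 17, and Rtkn2 the fewest, 4, none of them with a core. Apart from the strong candidate in Nfic, the highest was in Slc37a1, with a signal of 86.1. Slc37a1 had 14 summits in the list of pool G and 12 in that of pool H, against 10 in the conservative list, and it was the only one of the 7 genes with more summits in both single-pool lists than in the conservative list.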
